A study of Mus musculus with 16 samples.

Results

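The genes described here are 10 ubiquitin ligase genes linked to the loss of muscle protein, followed in 2 muscles of mice, gastrocnemius (Gas) and soleus (Sol), with and without a deletion of LSD1 in muscle fibers (LSD1-mKO and wild type, WT). They were chosen by name: *Fbxo32*, *Trim63*, *Trim54*, *Trim55*, *Fbxo21*, *Fbxo30*, *Fbxo40*, *Traf6*, *Cblb* and *Nedd4*. All 10 had a row in both count tables, which list 24421 genes, and all 10 passed the filter on low counts in every comparison. The lowest count of any of them in a library was 91 reads.

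Male C57BL/6 mice received tamoxifen at 75 mg/kg on 5 days from 8 weeks of age. From the fourth of these days they received the glucocorticoid dexamethasone, which drives muscle wasting, at 1 mg/kg on 7 days. LSD1-mKO mice carried Lsd1 flox/flox and a CreERT2 recombinase driven by the human *ACTA1* promoter, which is active in skeletal muscle fibers. WT mice carried the floxed allele without CreERT2. All 4 groups had received both drugs, and the mice were fasted before the muscles were taken, so every value here comes from dexamethasone-treated muscle. There were 3 WT and 5 LSD1-mKO libraries for each muscle, and the labels do not say whether a library is 1 animal or a pool.

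A ubiquitin ligase chooses the protein to which ubiquitin is attached, and chains of ubiquitin mark that protein for the proteasome. *Trim63* (MuRF1) and *Fbxo32* (atrogin-1) are the muscle ligase genes best known to rise when muscle wastes, for instance after fasting, denervation or glucocorticoids. The family to which *Trim63* belongs has RING finger proteins of the sarcomere, and *Fbxo32* encodes an F-box protein, the substrate-binding subunit of an SCF (Skp1, Cul1, F-box) ligase. Forkhead (FoxO) transcription factors and the glucocorticoid receptor are known to act on the *Trim63* promoter.

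The promoters of *Trim63* and *Trim54* are shown because these 2 genes, with *Fbxo32*, differed between the muscles in both genotypes. The sequences are the 250 bases before the start site from RefSeq (GRCm38.p6), on the plus strand, at chr4:134314870-134315119 for *Trim63* and at chr5:31116362-31116611 for *Trim54*. Capitals mark the motifs that were searched on both strands. The first was an inverted repeat of GAACA with 3 bases between the copies, the core of a glucocorticoid response element. The second was AGAACA, read on the opposite strand as TGTTCT, which overlaps a copy of that repeat. The third was TGTTTAC, read on the opposite strand as GTAAACA, a forkhead motif.
Trim63: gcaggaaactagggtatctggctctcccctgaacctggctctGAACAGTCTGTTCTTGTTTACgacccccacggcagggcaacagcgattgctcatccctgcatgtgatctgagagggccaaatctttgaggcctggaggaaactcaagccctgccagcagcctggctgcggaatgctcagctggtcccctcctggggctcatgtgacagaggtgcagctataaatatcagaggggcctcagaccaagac
Trim54: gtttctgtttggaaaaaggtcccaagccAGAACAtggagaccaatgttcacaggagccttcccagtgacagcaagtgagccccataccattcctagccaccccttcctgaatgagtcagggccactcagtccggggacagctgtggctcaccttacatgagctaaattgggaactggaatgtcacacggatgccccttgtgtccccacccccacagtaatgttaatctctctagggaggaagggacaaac

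The *Trim63* window held the complete repeat as GAACAGTCTGTTC, starting 208 bases before the start site, and its end overlapped TGTTCT. The forkhead motif TGTTTAC followed directly, starting 194 bases before the start site. In the *Trim54* window AGAACA started 222 bases before the start site, and the other motifs were not found. The motifs were chosen after the *Trim63* sequence had been seen. Over windows of 300 bases, of which 50 lie after the start, the repeat was present in 19 of 32851 promoters (0.0578%), the forkhead motif in 3.65%, AGAACA in 19% and the repeat together with the forkhead motif in 2 (0.00609%). Promoters of 8 of the 10 genes were in the reference table, with a pair of start sites each for *Fbxo40* and *Nedd4*. AGAACA was also found at the inner start site of *Fbxo40* and of *Nedd4*. *Fbxo32* and *Trim55* had no entry. A match of letters is a description of the window and not evidence of binding.

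The libraries held 10130415 to 24576377 reads assigned to genes. Transcripts of *Kdm1a*, the gene symbol of *Lsd1*, stood at 37.2 to 48.2 CPM (counts of a gene relative to the size of its library, scaled by TMM over all 16 libraries) in WT Gas and at 12 to 17.7 CPM in LSD1-mKO Gas. In Sol they stood at 33.4 to 34.9 CPM in WT and at 9.13 to 12.9 CPM in LSD1-mKO. The log2 fold change was -1.56 in Gas (edgeR quasi-likelihood test, adjusted p = 0.0177) and -1.66 in Sol (adjusted p = 0.000574), so the libraries matched their genotype labels. The sum of 8 fast fiber genes was 97672 to 192787 CPM in Gas and 20629 to 47993 CPM in Sol, and that of 7 slow fiber genes was 937 to 2575 CPM in Gas and 22692 to 32354 CPM in Sol, as the muscle labels state. Libraries also differed in the level of 77 ribosomal protein genes (mean log2 CPM). WT Gas replicate 3 (8.71), LSD1-mKO Gas replicate 5 (7.97) and WT Sol replicate 2 (7.34) were the highest of their groups, where the other libraries were at 7.15 to 7.52 in Gas and 6.46 to 6.88 in Sol. WT Gas replicate 3 also stood apart on the first principal component. Values with and without these libraries are given where they matter. Whole muscle was sequenced, so fewer fibers of a type and less RNA per fiber cannot be told apart.

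*Trim63*, *Fbxo32* and *Trim54* had the 3 highest mean levels per kilobase of the 10 genes in each group, and in LSD1-mKO Sol the libraries of *Fbxo32* overlapped with those of *Nedd4*. Levels between genes were compared as CPM per kilobase of exon, with exon lengths taken from GENCODE vM21 (GRCm38) and not from the annotation of the counts. In WT Gas *Trim63* had 1284 ± 350 CPM per kilobase (SD, n = 3), *Trim54* had 544 ± 120 and *Fbxo32* had 257 ± 14.4. *Nedd4* (31.3 ± 13.7), *Fbxo40* (16.9 ± 13.2), *Trim55* (9.48 ± 4.89) and *Fbxo30* (6.91 ± 0.0788) came next, and the libraries of each neighbouring pair among these 4 genes overlapped. *Cblb* (3.9 ± 0.966), *Fbxo21* (3.33 ± 0.391) and *Traf6* (2.64 ± 0.106) were the lowest, and of these *Cblb* and *Fbxo21* overlapped. In LSD1-mKO Gas the order of the 10 means was the same, but the ranges of *Trim63* and *Trim54* and of *Trim54* and *Fbxo32* overlapped, as did those of *Nedd4* and *Fbxo40* and of each neighbouring pair from *Trim55* down. In Sol the order at the top changed in both genotypes, with *Trim54* above *Trim63* and *Fbxo32*. In WT Sol *Trim54* was at 252 ± 54.4, *Trim63* at 135 ± 112 and *Fbxo32* at 73.3 ± 18.2 CPM per kilobase, and the ranges of *Trim54* and *Trim63* and of *Trim63* and *Fbxo32* overlapped. In LSD1-mKO Sol (n = 5) *Trim54* was at 243 ± 31.5, above all values of *Trim63* (88 ± 35.3) and *Fbxo32* (81.3 ± 36.7). *Nedd4*, *Fbxo40*, *Trim55* and *Fbxo30* followed in the same order as in Gas, then *Fbxo21*, *Cblb* and *Traf6*, of which *Cblb* and *Traf6* overlapped in both genotypes. The neighbouring pairs from *Nedd4* to *Fbxo30* also overlapped in WT Sol, and *Fbxo30* with *Fbxo21* in LSD1-mKO Sol. *Fbxo32* and *Trim63* together made up 64.3% to 87.7% of the summed CPM of the 10 genes in Gas and 30.9% to 59.3% in Sol.

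**Figure D1:**
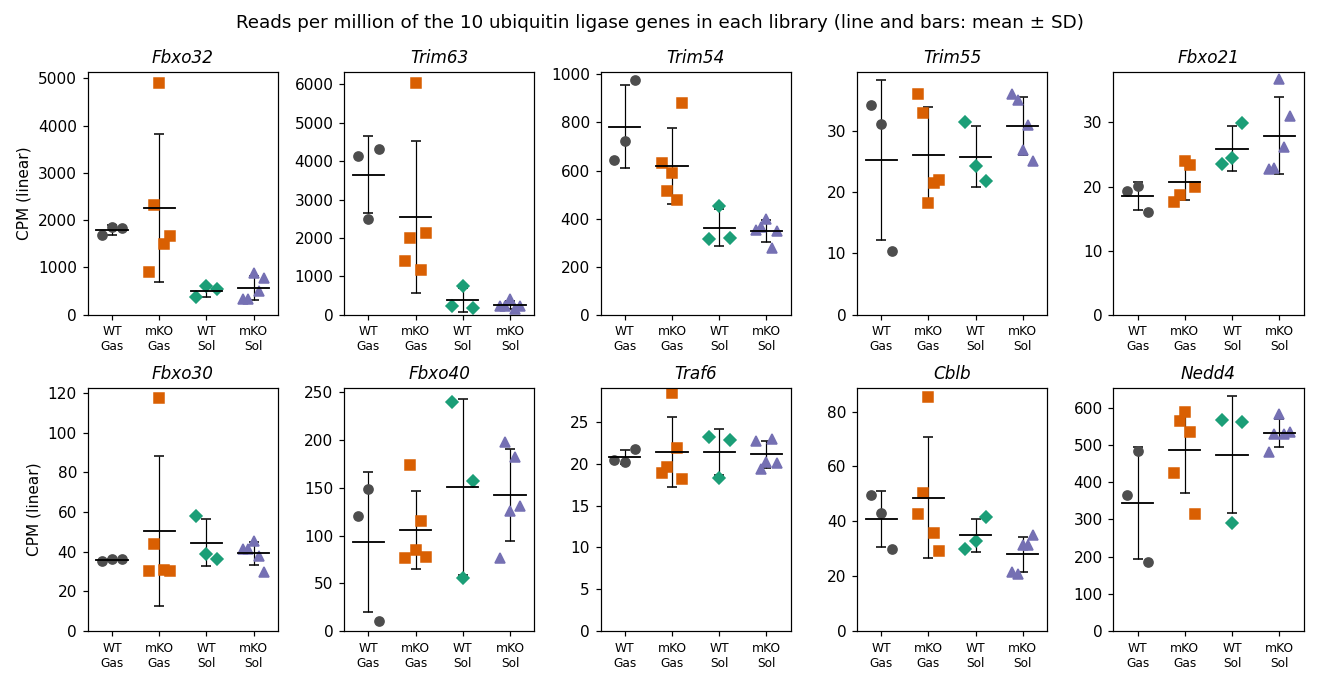
CPM of each of the 10 genes (vertical axis, linear and starting at 0, own scale per gene) in every library of the 4 groups. Points are libraries, horizontal lines are means and bars are 1 SD. Every Gas library was above every Sol library for *Fbxo32*, *Trim63* and *Trim54*.

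The first question was whether loss of LSD1 in muscle changed these genes under dexamethasone. In Gas 0 of the 10 genes passed an adjusted p of 0.05, where 0.0307% of all 13040 genes tested did (4 genes). In Sol 0 of 10 passed, where 0.967% of 13342 genes did (129 genes). No gene of the 10 had an unadjusted p under 0.05 in either muscle with all libraries in the fit, against 9.06% of all genes in Gas and 15.5% in Sol. WT and LSD1-mKO libraries overlapped for every one of them, where 6.95% of all genes in Gas and 10.8% in Sol did not overlap. DESeq2 and the edgeR exact test also called 0 of 10 in each muscle. The difference in log2 fold change between the muscles was tested as an interaction, and 0 of 10 passed (adjusted p from 0.987 to 0.998), as did 0 of all 13749 genes tested (4.88% had an unadjusted p under 0.05). In Gas the log2 fold change (LSD1-mKO minus WT) was positive for 8 of the 10 genes with a median of 0.17, where the median of all genes was 0.01. In Sol it was positive for 4 of 10 with a median of -0.05, where that of all genes was -0.01. The 8 of 10 in Gas did not hold without LSD1-mKO Gas replicate 3. Among the genes that then turned negative were *Fbxo32* (-0.16), *Fbxo30* (-0.08) and *Cblb* (-0.05). The negative values of *Trim63* and *Trim54* in Gas turned in no fit without 1 library.

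**Figure D2:**
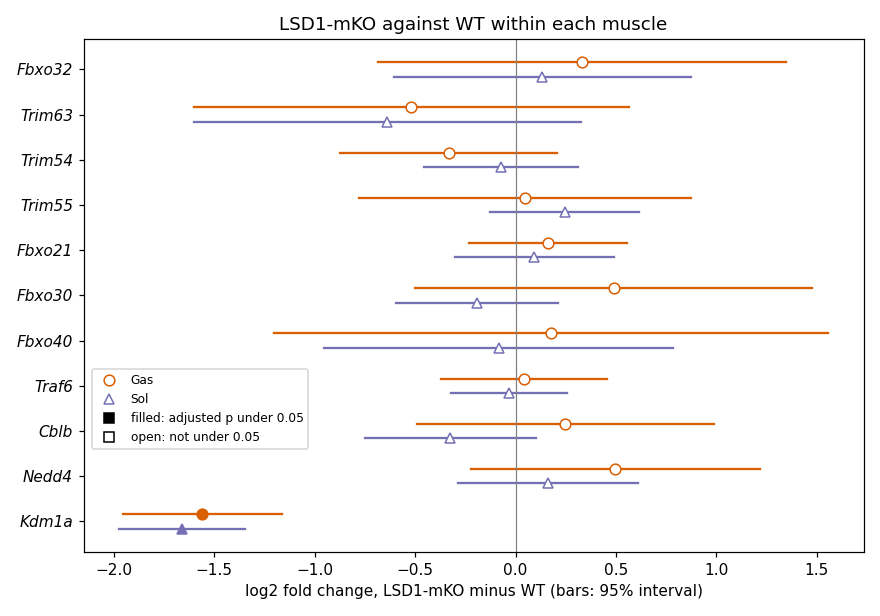
Log2 fold change of LSD1-mKO minus WT (horizontal axis) with its 95% interval for the 10 genes and *Kdm1a* in Gas (circles) and Sol (triangles). Every interval of the 10 genes contains 0, and *Kdm1a* lies at -1.56 and -1.66.

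Gene positions are those of GENCODE on GRCm38, the build of the counts. *Fbxo32* (chr15:58175879-58214932, minus strand) in WT Gas had 1677, 1858 and 1844 CPM in replicates 1 to 3. In LSD1-mKO Gas it had 904, 2328, 4905, 1493 and 1657 CPM in replicates 1 to 5. The WT values lay close together, while LSD1-mKO libraries fell on both sides of them and spanned 5.43-fold. The log2 fold change was 0.33 (95% interval -0.68 to 1.35, edgeR adjusted p = 0.79). Without LSD1-mKO Gas replicate 3 it was -0.16 (adjusted p = 0.879). In Sol the values were 370, 616 and 548 CPM in WT and 324, 334, 881, 513 and 782 CPM in LSD1-mKO. The log2 fold change in Sol was 0.13 (95% interval -0.61 to 0.87, edgeR adjusted p = 0.895). The range of *Fbxo32* was wider in LSD1-mKO in Sol as well, but over 5 libraries against 3, and spread was not tested. It was wider in WT for *Trim63* in Sol (179 to 750 against 161 to 423 CPM) and for *Nedd4* and *Fbxo40* in both muscles.

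*Trim63* (chr4:134315120-134329629, plus strand) in WT Gas had 4127, 2506 and 4313 CPM in replicates 1 to 3. In LSD1-mKO Gas it had 1404, 2010, 6025, 1161 and 2140 CPM in replicates 1 to 5. Replicate 3 of LSD1-mKO was above every WT library and the other 4 were below every WT library. With all libraries the log2 fold change was -0.52 (95% interval -1.60 to 0.56, edgeR adjusted p = 0.692). Without LSD1-mKO Gas replicate 3 it was -1.11 with a standard error of 0.30, where the unadjusted p was 0.00454 in the edgeR fit and the adjusted p was 0.432, so the call did not change. In Sol *Trim63* had 221, 750 and 179 CPM in WT and 232, 219, 423, 161 and 217 CPM in LSD1-mKO. WT Sol replicate 2, which had the highest ribosomal protein level of its group, was above all other Sol libraries. The log2 fold change in Sol was -0.64 (95% interval -1.60 to 0.32, edgeR adjusted p = 0.534), and without WT Sol replicate 2 it was 0.32 (adjusted p = 0.681).

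The other RING finger genes of the sarcomere were not called between genotypes either. *Trim54* (MuRF3), which binds microtubules and the sarcomere (chr5:31116712-31137630, plus strand), had 645, 724 and 975 CPM in WT Gas and 632, 516, 589, 476 and 883 CPM in LSD1-mKO Gas, and the highest library of each group was the one with the highest ribosomal protein level. Its log2 fold change was -0.33 (95% interval -0.87 to 0.21) in Gas and -0.07 (95% interval -0.46 to 0.31) in Sol. *Trim55* (MuRF2), a partner of titin (chr3:19644474-19692421, plus strand), had 34.3, 31 and 10.3 CPM in WT Gas and 18.3 to 36 CPM in LSD1-mKO Gas. Its log2 fold change was 0.05 (95% interval -0.78 to 0.87) in Gas and 0.24 (95% interval -0.13 to 0.62) in Sol. Without WT Gas replicate 3, the library at 10.3 CPM, the value in Gas was -0.31 (edgeR adjusted p = 0.879).

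Among the other F-box genes, *Fbxo30* (MUSA1), a ligase gene known to rise after denervation and held down by BMP signalling (chr10:11281330-11298052, plus strand), had 35.4, 36.1 and 36.2 CPM in WT Gas. In LSD1-mKO Gas it had 30.3, 43.6, 117, 30.8 and 30.4 CPM, so that replicate 3 alone lay far above both groups. The log2 fold change was 0.49 (95% interval -0.50 to 1.48, edgeR adjusted p = 0.683), and without that library it was -0.08 (adjusted p = 0.9). *Fbxo40*, a muscle F-box gene whose protein targets IRS1 in insulin and IGF signalling (chr16:36963460-36990467, minus strand), had 120, 149 and 10.5 CPM in WT Gas, the last in replicate 3, and 76.9 to 174 CPM in LSD1-mKO Gas. Its interval was the widest of the 10 genes in Gas, from -1.20 to 1.56 around 0.18, and without WT Gas replicate 3 the value was -0.34 (edgeR adjusted p = 0.893). *Fbxo21* (SMART), another F-box gene linked to muscle loss (chr5:117976730-118010201, plus strand), had 16 to 20 CPM in WT Gas and 17.5 to 24 CPM in LSD1-mKO Gas. Its log2 fold change was 0.16 (95% interval -0.23 to 0.56) in Gas and 0.09 (95% interval -0.30 to 0.49) in Sol. In Sol the log2 fold change was -0.19 for *Fbxo30* (95% interval -0.60 to 0.21) and -0.08 for *Fbxo40* (95% interval -0.95 to 0.79).

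The remaining ligases act in signalling. *Traf6*, a ligase of inflammatory signalling that builds K63-linked chains (chr2:101678429-101701669, plus strand), varied little, with 20.2 to 21.8 CPM in WT Gas and 18.2 to 28.5 CPM in LSD1-mKO Gas. Its intervals were -0.37 to 0.46 around 0.04 in Gas and -0.32 to 0.26 around -0.03 in Sol, on the log2 scale, and thus the narrowest in Sol. *Cblb*, which targets IRS1 in unloaded muscle (chr16:52031225-52208048, plus strand), had 29.8 to 49.7 CPM in WT Gas and 29.1 to 85.3 CPM in LSD1-mKO Gas, the highest again in replicate 3. Its log2 fold change was 0.25 (95% interval -0.49 to 0.99) in Gas and -0.32 (95% interval -0.75 to 0.10, edgeR adjusted p = 0.462) in Sol. *Nedd4*, a HECT-type ligase (chr9:72662346-72749852, plus strand), had 364, 483 and 184 CPM in WT Gas and 425, 565, 588, 536 and 315 CPM in LSD1-mKO Gas. The libraries at 184 and 315 CPM were the ones with the highest ribosomal protein level of their groups. Its log2 fold change was 0.50 (95% interval -0.22 to 1.22, edgeR adjusted p = 0.601) in Gas, and without WT Gas replicate 3 it was 0.21 (adjusted p = 0.934). In Sol it was 0.16 (95% interval -0.29 to 0.61).

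LSD1-mKO Gas replicate 3 was the highest of its group for 7 of the 10 genes, *Fbxo32*, *Trim63*, *Fbxo21*, *Fbxo30*, *Traf6*, *Cblb* and *Nedd4*. It exceeded the median of the other 4 libraries by 1.94 for *Fbxo30*, 1.84 for *Trim63*, 1.64 for *Fbxo32* and 1.13 for *Cblb* on the log2 scale. *Trim55* was lower there than in the other 4 libraries, by 0.56. The sum of 9 glucocorticoid response genes was also highest in this library, at 9659 CPM against 4723 to 7544 CPM in the others, and that of 11 blood cell markers was 154 CPM against 36.4 to 52.3 CPM. The blood cell markers did not all vary alike over the LSD1-mKO Gas libraries. *S100a9* ran from 1.45 to 47.1 CPM, *S100a8* from 0.964 to 34.7 and *Ngp* from 0 to 29.8. *Ptprc* ran from 2.19 to 4.40 CPM, *Cd68* from 4.07 to 6.19, *Adgre1* from 4.58 to 7.44 and *Csf1r* from 22.6 to 32.8. The ribosomal protein level of LSD1-mKO Gas replicate 3 was not apart from the others. The part of these differences in the ligase values was not tested.

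**Figure D3:**
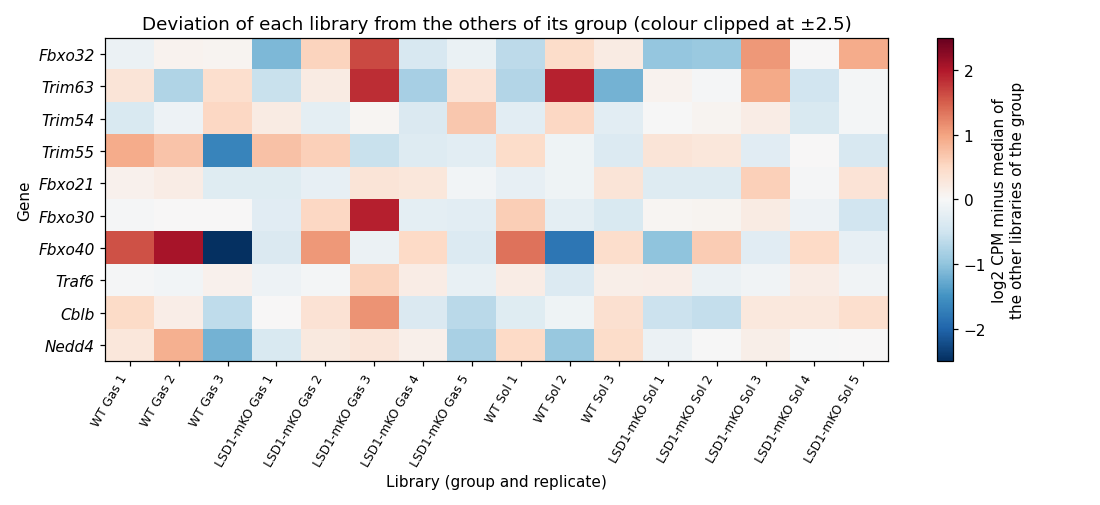
Log2 CPM of each of the 10 genes (rows) in each library (columns) minus the median of the other libraries of the same group, in colour from -2.5 (blue) to 2.5 (red). LSD1-mKO Gas replicate 3 is red for *Fbxo32*, *Trim63*, *Fbxo30* and *Cblb*, and WT Gas replicate 3 is blue for *Trim55*, *Fbxo40* and *Nedd4*.

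The next comparison set Sol against Gas within each genotype, in 1 fit over all 16 libraries. *Trim63*, *Fbxo32* and *Trim54* were lower in Sol in WT and in LSD1-mKO. In WT these 3 were the only ones of the 10 genes called, where 17% of all 13749 genes were called of which 8.25% lower and 8.75% higher in Sol. In LSD1-mKO 5 of 10 were called, 4 lower and 1 higher in Sol, where 24.5% of all genes were called, 11.6% lower and 12.9% higher. The Gas and Sol libraries carry different sets of library names in their titles, so muscle and library set cannot be told apart. Groups did not overlap for 5 of 10 genes in WT (*Fbxo32*, *Trim63*, *Trim54*, *Fbxo21* and *Fbxo30*), where 30.3% of all genes did not, and for 3 of 10 in LSD1-mKO (*Fbxo32*, *Trim63* and *Trim54*), where 20.9% did not. The median log2 fold change of the 10 genes was 0.03 in WT and -0.19 in LSD1-mKO, where the median of all genes was -0.01 and about 0.

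*Trim63* showed the largest difference of the 10 genes. Its lowest Gas library had 2506 CPM in WT and 1161 CPM in LSD1-mKO, while its highest Sol library had 750 CPM in WT and 423 CPM in LSD1-mKO. In WT *Trim63* was 9.52-fold lower in Sol (log2 fold change -3.25, SE 0.63, edgeR adjusted p = 0.002). In LSD1-mKO it was 10.2-fold lower (log2 fold change -3.35, SE 0.49, adjusted p = 0.000107). Leaving out any 1 library kept it between -4.18 and -2.90 in WT and between -3.64 and -2.76 in LSD1-mKO.

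*Fbxo32* had 1677 to 1858 CPM in WT Gas and 370 to 616 CPM in WT Sol, and 904 to 4905 CPM in LSD1-mKO Gas and 324 to 881 CPM in LSD1-mKO Sol. Each Sol library was below each Gas library, in LSD1-mKO by a narrow margin (881 against 904 CPM). It was 3.51-fold lower in Sol in WT (log2 fold change -1.81, SE 0.50, edgeR adjusted p = 0.0203) and 3.98-fold lower in LSD1-mKO (log2 fold change -1.99, SE 0.39, adjusted p = 0.00128). The call in WT was lost without WT Sol replicate 1 (-1.62, edgeR adjusted p = 0.102) and without WT Sol replicate 3 (-1.85, adjusted p = 0.0672). The ratio of *Trim63* to *Fbxo32* CPM within a library was 0.778 to 2.46 in Gas and 0.277 to 1.22 in Sol, highest in the 3 WT Gas libraries except that LSD1-mKO Gas replicate 1 (1.55) exceeded the lowest of them (1.35).

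*Trim54* had 476 to 975 CPM in Gas and 276 to 453 CPM in Sol, taking both genotypes together. It was 2.16-fold lower in Sol in WT (log2 fold change -1.11, SE 0.24, edgeR adjusted p = 0.00489) and 1.77-fold lower in LSD1-mKO (log2 fold change -0.83, SE 0.19, adjusted p = 0.00388). With the ribosomal protein level in the model, which was itself higher in Gas, the log2 fold change of *Trim54* in WT was -0.56 and the call was lost (edgeR adjusted p = 0.0635). An antisense gene without a row in the count tables shares 26.6% of the annotated *Trim54* exon bases, and reads of the 2 strands cannot be told apart here. The same holds for 2.67% of the *Fbxo32* exon bases.

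*Cblb* and *Fbxo21* were called between the muscles in LSD1-mKO alone, and the difference of their muscle effects between genotypes was not significant (adjusted p = 0.987 and 0.992). *Cblb* had 29.1 to 85.3 CPM in Gas and 20.8 to 34.9 CPM in Sol in LSD1-mKO, and was 1.73-fold lower in Sol (log2 fold change -0.79, SE 0.25, edgeR adjusted p = 0.03). *Fbxo21* had 17.5 to 24 CPM in Gas and 22.7 to 36.8 CPM in Sol, and was 1.35-fold higher in Sol (log2 fold change 0.43, SE 0.15, adjusted p = 0.0499). Gas and Sol libraries overlapped for both. LSD1-mKO libraries of the same number deviated together across the muscles, and with the replicate block neither gene was called (*Cblb* -0.73, edgeR adjusted p = 0.0661, *Fbxo21* 0.42, adjusted p = 0.0554), which left 3 of 10. *Cblb* also lost its call without any 1 of 4 libraries, LSD1-mKO Gas replicates 2 and 3 and LSD1-mKO Sol replicates 1 and 2 (adjusted p from 0.051 to 0.0867). *Fbxo21* lost its call in 12 of the 16 fits without 1 library.

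The other 5 genes did not pass the test between the muscles in either genotype. The log2 fold change (Sol minus Gas) in WT and LSD1-mKO was 0.02 and 0.23 for *Trim55*, 0.31 and -0.37 for *Fbxo30*, 0.69 and 0.43 for *Fbxo40*, 0.04 and -0.02 for *Traf6* and 0.46 and 0.13 for *Nedd4*. *Traf6* had the narrowest intervals, from -0.33 to 0.41 in WT and from -0.30 to 0.27 in LSD1-mKO. For *Fbxo40* they ran from -0.66 to 2.04 in WT and from -0.61 to 1.48 in LSD1-mKO, so that a difference of either sign remained possible.

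**Figure D4:**
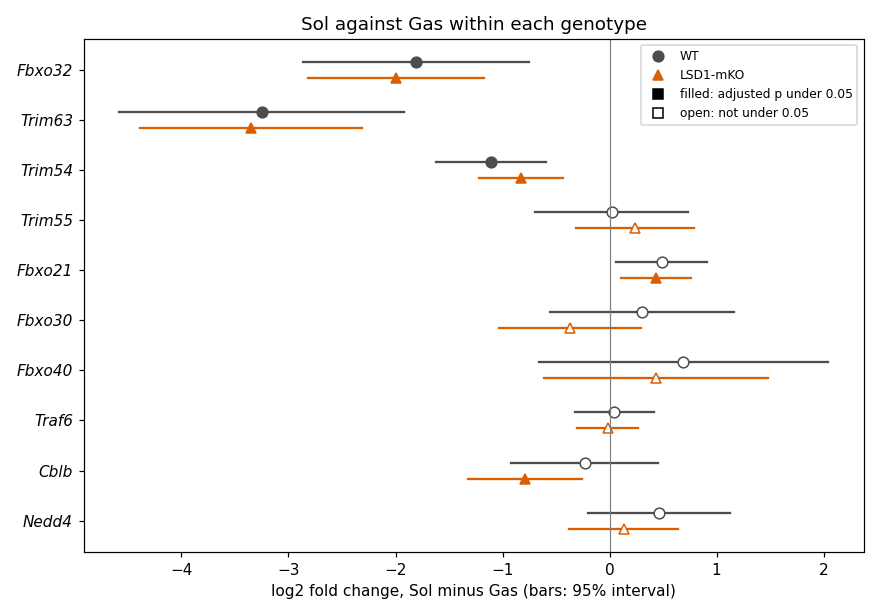
Log2 fold change of Sol minus Gas (horizontal axis) with its 95% interval for the 10 genes in WT (circles) and LSD1-mKO (triangles). *Trim63*, *Fbxo32* and *Trim54* lie below 0 with filled markers in both genotypes.

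The ligase genes differed in how their levels varied with the ribosomal protein level of the library. After the mean of each group was subtracted, Pearson's r over the 16 libraries was -0.97 for *Nedd4*, -0.87 for *Fbxo40*, -0.63 for *Trim55* and 0.82 for *Trim54*. For the other 6 genes it was between -0.50 and 0.34. These are descriptions over libraries that share 1 scaling, and the choice of these 4 genes rests on the 3 libraries with a high level. Without these 3, r over 13 libraries was -0.76 for *Nedd4*, -0.49 for *Fbxo40*, 0.23 for *Trim55* and 0.41 for *Trim54*, while it was -0.47 for *Traf6* and -0.44 for *Fbxo30*. In WT Gas replicate 3 *Nedd4* was at 184 CPM against 364 and 483, *Fbxo40* at 10.5 CPM against 120 and 149, and *Trim55* at 10.3 CPM against 34.3 and 31. In WT Sol replicate 2 *Nedd4* was at 292 CPM against 567 and 560, and *Fbxo40* at 55.6 CPM against 240 and 157. With the ribosomal protein level in the model, *Nedd4* was called lower in Sol in LSD1-mKO (log2 fold change -0.38, edgeR adjusted p = 0.0179), where it was 0.13 without it (adjusted p = 0.73). That level was 7.15 to 7.97 in LSD1-mKO Gas and 6.70 to 6.88 in LSD1-mKO Sol. The muscles shared no level there, so the call rests on extrapolation. The part of RNA quality or muscle composition in this pattern was not tested.

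**Figure D5:**
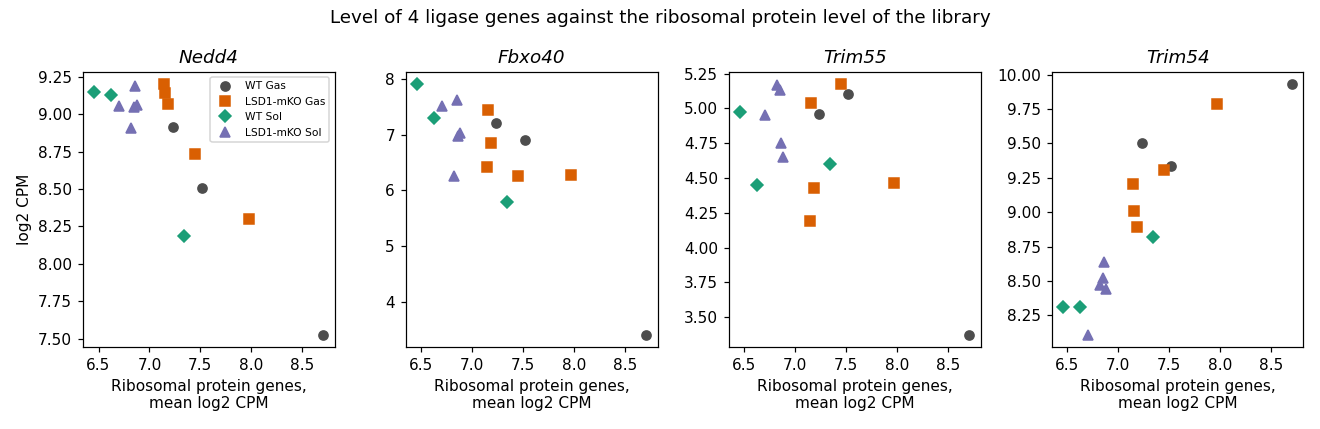
Log2 CPM of *Nedd4*, *Fbxo40*, *Trim55* and *Trim54* (vertical axes, own scale per gene) against the mean log2 CPM of the ribosomal protein genes (horizontal axis) in the 16 libraries, marked by group. WT Gas replicate 3, at 8.71, has the lowest *Nedd4*, *Fbxo40* and *Trim55* and the highest *Trim54* of all libraries.

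Within groups, the ligase genes did not move as 1 block. With the group means subtracted, Pearson's r over the 16 libraries was 0.65 for *Fbxo32* and *Trim63*, 0.73 for *Fbxo32* and *Cblb*, 0.74 for *Fbxo30* and *Traf6*, 0.85 for *Fbxo40* and *Nedd4* and -0.76 for *Trim54* and *Nedd4*. Without LSD1-mKO Gas replicate 3 these values were 0.42, 0.51, 0.21, 0.89 and -0.78 over 15 libraries. Of the 10767 genes that averaged 50 reads or more a library, with all 16 libraries, those most like *Fbxo32* were *Gucd1* (0.93), *Zfp747* (0.91), *Gab1* (0.91), *Btg1* (0.90) and *Rhbdf2* (0.89). Those most like *Trim63* were *Foxc1* (0.93), *Anks3* (0.88), *Taf15* (0.86), *Tle1* (0.86) and *Junb* (0.86). The 2 lists share no gene.

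Other genes of the ubiquitin pathway were followed as lists. Between genotypes, 0 of 6 SCF core genes, 0 of 6 ubiquitin and activating enzyme genes, 0 of 14 conjugating enzyme genes, 0 of 21 other muscle ligase genes and 0 of 12 deubiquitinase genes were called in Gas or in Sol. Their median log2 fold changes were -0.29, -0.25, -0.20, 0.12 and 0.06 in Gas and -0.20, 0.10, -0.04, 0.01 and 0.0049 in Sol. Of 9 genes of known substrates of these ligases, 1 was called between genotypes, in Sol. This was *Mybpc2*, the gene of fast myosin-binding protein C, at 325 CPM in WT and 1102 CPM in LSD1-mKO on average (log2 fold change 1.74, edgeR adjusted p = 0.0373), and 0 of 9 were called in Gas. Of all genes tested, 0.967% were called in Sol and 0.0307% in Gas. The *Mybpc2* call was not checked with 1 library left out.

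Between the muscles the pathway lists moved in both directions. Of the conjugating enzymes 3 were called lower and 1 higher in Sol in each genotype. *Ube2d1* (-1.41 in WT and -0.95 in LSD1-mKO), *Ube2j2* (-1.04 and -1.003) and *Ube2j1* (-0.52 and -0.63) were lower, and *Ube2g2* (0.60 and 0.58) was higher. Of the other muscle ligases 4 of 21 were called in WT, with *Fbxl22* (-2.16), *Nedd4l* (-1.36) and *Asb2* (-1.26) lower and *Smurf1* (0.72) higher in Sol. In LSD1-mKO 5 of 21 were called, with *Nedd4l* (-0.98) and *Asb2* (-0.94) lower and *Fbxw7* (1.06), *Klhl41* (0.78) and *Smurf1* (0.63) higher. The deubiquitinase gene *Cyld* was higher in Sol in WT (1.15) and LSD1-mKO (0.65), and *Uchl1* was higher in LSD1-mKO (2.11), out of 12. With the replicate block *Fbxl22* (-0.71, edgeR adjusted p = 0.0351) and *Ubb* (-0.58, adjusted p = 0.0404) were called lower in Sol in LSD1-mKO as well. No SCF core gene of 6 was called in either genotype. The share of called genes in these lists stands against the 17% and 24.5% of all genes called.

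Of 13 genes known to act on ligase genes, 1 was called lower in Sol in WT and 3 lower and 1 higher in LSD1-mKO, where 8.25% and 11.6% of all genes were called lower. The log2 fold change was positive for 6 of the 13 in WT and for 1 of the 13 in LSD1-mKO. Its median was -0.12 in WT and -0.40 in LSD1-mKO, where that of all genes was -0.01 and about 0. *Foxo1*, a forkhead factor that drives *Fbxo32* and *Trim63* in wasting muscle, was at 225 CPM in WT Gas and 91.5 CPM in WT Sol on average (log2 fold change -1.30, edgeR adjusted p = 0.0392), and at 178 and 52.6 CPM in LSD1-mKO (-1.76, adjusted p = 0.000762). It was the 1 gene called in WT, while in LSD1-mKO *Klf15* (-1.10), *Foxo4* (-0.66) and *Smad2* (0.52, higher in Sol) were called too. *Nr3c1*, the gene of the glucocorticoid receptor, did not pass (log2 fold change -0.41 in WT and -0.39 in LSD1-mKO, adjusted p = 0.31 and 0.188). Of 9 glucocorticoid response genes, 3 were called lower in Sol in WT, *Sgk1* (-1.84), *Tsc22d3* (-1.75) and *Fkbp5* (-0.59), where 8.25% of all genes were. In LSD1-mKO 6 of 9 were called lower, where 11.6% of all genes were, and of these *Ddit4* (-2.82), *Tsc22d3* (-1.93), *Sgk1* (-1.42), *Klf15* (-1.10) and *Fkbp5* (-0.66) had the largest differences. The log2 fold change was positive for 2 of the 9 in each genotype. *Pdk4*, which was not called, averaged 4018 CPM in WT Gas and 6254 CPM in WT Sol. The sum of the 9 genes had a median of 5438 CPM in WT Gas and 7398 CPM in WT Sol. In LSD1-mKO the medians were 5189 and 5627 CPM. No gene of the regulator or the glucocorticoid list was called between genotypes in either muscle, and *Foxo1* in Sol had a log2 fold change of -0.82 (adjusted p = 0.237).

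Of 9 substrate genes, 4 were called lower and 2 higher in Sol in each genotype, where 17% of all genes were called in WT and 24.5% in LSD1-mKO. *Mybpc2*, *Myl1*, *Ckm* and *Eif3f* were lower (log2 fold change -4.29, -1.95, -1.48 and -0.83 in WT), and *Myl2* and *Mybpc1* were higher (3.68 and 2.09 in WT). This list shares *Myl1* with the fast fiber genes and *Myl2* with the slow fiber genes. In each genotype 7 of 8 fast fiber genes were called lower and 7 of 7 slow fiber genes higher in Sol. Markers of other cell types were given the same test, with the same shares of all genes called. Summed blood cell markers were at 36.4 to 154 CPM in Gas, the highest in LSD1-mKO Gas replicate 3, and 23.9 to 63.8 CPM in Sol. *Hba-a1* and *Hbb-bs* were at 0 in all libraries. The counts left out reads mapping to several places or genes, so these genes do not show whether red cell RNA was present. Of the endothelial list 1 of 5 (*Pecam1*), of the satellite cell list 1 of 4 (*Cdh15*) and of the blood list 3 of 7 tested (*Ngp* and *S100a9* lower, *Cd68* higher in Sol) were called in LSD1-mKO. Of these *S100a9* was not called with the replicate block (edgeR adjusted p = 0.319). *Ngp* was near 0 in LSD1-mKO Sol (0 to 0.118 CPM), and in LSD1-mKO Gas its mean of 6.22 CPM came mostly from 1 library at 29.8 CPM. In either genotype 0 of the fibroblast and adipocyte lists were called. With the replicate block the fibroblast gene *Col1a1* was called higher in Sol in LSD1-mKO (log2 fold change 0.87, edgeR adjusted p = 0.029). Summed fibroblast markers were at 826 to 1900 CPM in Gas and 450 to 1356 CPM in Sol, and summed adipocyte markers at 172 to 779 CPM and 114 to 563 CPM. Their part in the ligase differences was not tested.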

How the data were processed

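Poly(A) RNA of 16 muscle samples was sequenced (75 bp, single-end). Reads were aligned by the authors to mm10 using STAR. Per the file headers, they counted exon reads of the UCSC iGenomes annotation with featureCounts 1.5.2, with no strand option and without reads mapping to several places or genes. The deposited tables hold raw read counts for 24421 genes. The authors' own comparison tables (fold changes, mean expression and p-values) were not used. Groups follow the labels' genotype and muscle, and 0 count columns belonged to other samples.

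The counts went into edgeR 4.0.16 (R 4.3.3, limma 3.58.1): filterByExpr (minimum count 10), TMM scaling and the two-sided quasi-likelihood F-test over all genes, per muscle for genotype and over all 16 libraries for the muscles and the interaction. A gene is called at an adjusted p (Benjamini-Hochberg) under 0.05. The SE is the log2 fold change over the square root of F, and intervals are 95%. DESeq2 1.42.0 was an alternative. Replicates are separate samples by label only, so p-values measure the spread between these samples, which may be technical. No 2 libraries agreed within counting error.

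The members, lists and tests were chosen with earlier results of these data known. All 10 ligase genes and *Kdm1a* are named. Listed genes are named where called, at most 5 a list by size of change, and likeness is the 5 highest Pearson correlations. The scripts were tested on simulated counts. Replicate numbers pair LSD1-mKO libraries across the muscles (r of 0.204 to 0.347 in 5 of 5 pairs) by the rule that every pair exceeds 0.1. They do not pair WT libraries across the muscles, nor the genotypes. Results for 2 listed genes are not reported here.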

Additional observations from a re-analysis of the deposited data

Results flagged for a closer look

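In the groups of 5 libraries, 24 values were tested for a sample far from the others, and 3 were found. The 24 were the 10 ligase genes, *Kdm1a* and the ribosomal protein level in LSD1-mKO Gas and Sol. Genes were tested as CPM and not on the log2 scale. Chance gives about 1.2 (1 in 20) only for independent values with a normal spread. CPM need not have that spread, and genes of the same library can vary together, so the 3 found cannot be set against chance. *Trim63* in LSD1-mKO Gas replicate 3 was at 6025 CPM against 1161 to 2140 CPM in the other 4 libraries, a gap of 0.799 of the range (critical value 0.71). *Fbxo30* in the same library was at 117 CPM against 30.3 to 43.6 CPM, a gap of 0.847. *Trim63* in LSD1-mKO Sol replicate 3 was at 423 CPM against 161 to 232 CPM, a gap of 0.729. Groups of 3 were not tested.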

How the results depend on the processing

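No alternative called any of the 10 genes between genotypes or for the interaction, and *Trim63* stayed below 0 and called between the muscles in every alternative and in every fit without 1 library. RLE scaling, DESeq2, the exact test and no filter turned the direction of no ligase gene. The counts over all genes moved more. In Gas the 4 genes called became 132 with DESeq2, 103 with the edgeR exact test and 10 with no filter on low counts. In Sol the 129 became 605, 558 and 336, and 280 with the ribosomal protein level as covariate, 412 with the replicate block and 23 without the 3 libraries with a high ribosomal protein level, an alternative chosen after seeing the data. For the interaction 21 genes were called with DESeq2, against 0, and 1 with the replicate block. The replicate block left 3 ligase genes called between the muscles in LSD1-mKO, changed no other ligase call, and turned the signs of *Fbxo32* -0.14 and *Trim54* 0.052 for LSD1-mKO against WT in Sol, *Trim63* 0.41 for the interaction. Between genotypes this block matched WT and LSD1-mKO libraries of a muscle by number, although the numbers do not pair the genotypes. Replicates 4 and 5, present in LSD1-mKO alone, did not enter that genotype effect. Where the numbers pair no samples, 1 of 3 WT libraries in Gas, 1 of 3 in Sol and 0 of 3 across the muscles in WT correlated best with its own number.

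With the ribosomal protein level as covariate 1 ligase gene (*Trim63*) stayed called between the muscles in WT (*Fbxo32* was at -1.91, adjusted p = 0.054, against -1.81), and signs turned for *Cblb* -0.074, *Fbxo40* -0.084, *Traf6* -0.0059 and *Trim55* -0.16 for LSD1-mKO against WT in Gas, *Fbxo40* 0.14 for LSD1-mKO against WT in Sol, *Fbxo21* 0.021, *Fbxo40* 0.27, *Nedd4* 0.11 and *Traf6* 0.023 for the interaction, *Fbxo30* -0.14, *Fbxo40* -1.01, *Nedd4* -0.48, *Traf6* -0.13 and *Trim55* -0.55 for Sol against Gas in WT, *Fbxo40* -0.74, *Nedd4* -0.38 and *Trim55* -0.16 for Sol against Gas in LSD1-mKO. Without the 3 libraries they turned for *Fbxo40* -0.24 and *Trim55* -0.25 for LSD1-mKO against WT in Gas, *Nedd4* -0.085, *Trim54* 0.13 and *Trim63* 0.32 for LSD1-mKO against WT in Sol, *Trim63* 0.66 for the interaction, *Trim55* -0.32 for Sol against Gas in WT. *Fbxo21* lost its call between the muscles in LSD1-mKO under 5 of 6 alternatives. The cause of these changes was not tested.

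Leaving out 1 library at a time gave 1 to 7 genes called in Gas, 11 to 228 in Sol, 0 to 1 for the interaction, 1132 to 2839 between the muscles in WT and 2618 to 4409 in LSD1-mKO, and 2 to 3 and 3 to 5 ligase genes between the muscles. The count in Gas moved by over 1.5 times without WT Gas replicate 1, 2 or 3 (1, 1 and 7) or LSD1-mKO Gas replicate 2 or 5 (2 each), that in Sol without WT Sol replicate 1, 2 or 3 (13, 23 and 11) or LSD1-mKO Sol replicate 2, 3 or 5 (35, 67 and 228), that for the interaction without LSD1-mKO Sol replicate 3 (1), and that between the muscles in WT without WT Sol replicate 1 or 3 (1132 and 1199). The 3 ligase genes in LSD1-mKO were without LSD1-mKO Gas replicate 2. Of the log2 fold changes below, which changed sign, none was called. For LSD1-mKO against WT in Gas they ran from -0.049 to 0.41 for *Cblb*, -0.083 to 0.62 for *Fbxo30*, -0.16 to 0.53 for *Fbxo32*, -0.34 to 0.71 for *Fbxo40*, -0.077 to 0.095 for *Traf6* and -0.31 to 0.33 for *Trim55*. For LSD1-mKO against WT in Sol they ran from -0.029 to 0.22 for *Fbxo21*, -0.31 to 0.0496 for *Fbxo30*, -0.085 to 0.30 for *Fbxo32*, -0.48 to 0.42 for *Fbxo40*, -0.085 to 0.31 for *Nedd4*, -0.12 to 0.034 for *Traf6*, -0.15 to 0.13 for *Trim54* and -0.96 to 0.32 for *Trim63*. For the interaction they ran from -0.20 to 0.038 for *Fbxo21*, -0.42 to 0.29 for *Fbxo32*, -0.76 to 0.27 for *Fbxo40*, -0.16 to 0.038 for *Traf6*, -0.069 to 0.57 for *Trim55* and -0.47 to 0.84 for *Trim63*. For Sol against Gas in WT they ran from -0.016 to 0.15 for *Traf6* and -0.37 to 0.30 for *Trim55*. For Sol against Gas in LSD1-mKO they ran from -0.52 to 0.19 for *Fbxo30* and -0.076 to 0.086 for *Traf6*. With 3 WT libraries, the 95% intervals given with the results are the limit of what these data can show.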
